A study of Sus scrofa with 21 samples.

Results

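The genes described here encode the glycoproteins, granule proteins and tubulin by which blood platelets are recognised: ITGA2B, ITGB3, GP9, GP1BA, GP6, PF4, PPBP, THBS1, TUBB1 and TREML1. They were followed in RNA of whole blood, a mixture of all blood cells, in 2 pig breeds. A probe was taken as theirs where the gene name in the scanner file was one of these 10 symbols. This gave 16 of the 60305 probes of the array and covered 7 of its 47030 gene names, with 6 probes for THBS1, 3 for ITGB3, 2 each for GP9 and PPBP, and 1 each for ITGA2B, GP6 and TUBB1. No probe carried the names GP1BA, PF4 or TREML1. GP1BA was reached through its locus number and PF4 through the description in the file, and TREML1 was not analysed here. Another 11 probes were matched to the 10 symbols in this way, by a symbol in other letter case or by sequence, and are kept apart from the 16.

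Platelets are shed by megakaryocytes of the bone marrow and have no nucleus, so their RNA is what the parent cell packed into them. The integrin chains ITGA2B and ITGB3 form the fibrinogen receptor. GP1BA and GP9 belong to the receptor for von Willebrand factor, and GP6 is the collagen receptor. PF4 and PPBP are chemokines stored in alpha granules beside the adhesive glycoprotein THBS1, which monocytes also make. TUBB1 is the beta tubulin of the marginal microtubule band that gives the platelet its disc shape.

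The DD group was 10 SLAdd minipigs from 5 litters, animals inbred for 1 haplotype of the swine leukocyte antigen complex, and the LW group was 11 Large White pigs from 6 litters. All were 60 days old and ate a standard diet without restriction. Each pig gave 1 one-colour array on 1 of 3 chips, with 3 DD and 4 LW arrays on chip 1, 4 of each on chip 2 and 3 of each on chip 3. Litter mates share a sow, and breed cannot be told apart from anything else in which the herds differed.

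The DD arrays were dimmer than the LW arrays. Array brightness, the log2 of the 75th percentile of processed signal, was 7.53 ± 0.54 (SD, n = 10) in DD and 8.22 ± 0.38 (SD, n = 11) in LW. Mean brightness on chip 1 was 7.95 for DD against 8.02 for LW. It was 7.55 against 8.31 on chip 2, while chip 3 gave 7.09 against 8.36. The study's methods name a technical bias of chip 3. Over all 34511 features tested, a feature being the mean of the kept probes that share a gene name, 7313 differed between the breeds at an adjusted p below 0.05, or 21.2%. Of these, 3930 were higher and 3383 lower in DD. With each array scaled to its 75th percentile instead, 4900 were higher and 2210 lower, and the median difference of all features moved from -0.05 to 0.06 on the log2 scale.

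The probe sequences below are shown because probes of the same gene did not all give the same reading. They are written 5′ to 3′ as in the scanner files, which give no genome position for them. The first PPBP probe ends in a stop codon of an open frame, set in capitals, and starts at base 350 of its target. The second PPBP probe and the THBS1 probe at base 4239 are shown by their first 30 bases, as is the TUBB1 probe at base 3095. The THBS1 probe at base 419 and the second TUBB1 probe are whole. The ITGB3 stretch in capitals is a run of 30 bases that the ITGB3 probe at base 4376 shares with a probe named CYP24A1.
PPBP, base 350: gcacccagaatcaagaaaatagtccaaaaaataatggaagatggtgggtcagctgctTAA
PPBP, second probe: tccctaacccttaggctaaatgtggtattg
THBS1, base 419: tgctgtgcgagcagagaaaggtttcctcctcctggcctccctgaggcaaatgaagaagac
THBS1, base 4239: aaagacttgctggatttcatgatgctggcc
TUBB1, base 3095: gccctttttcattttctcagatctaaaaag
TUBB1, second probe: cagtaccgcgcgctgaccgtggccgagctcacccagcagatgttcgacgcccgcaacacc
ITGB3, base 4376: GTTGCCGTGAGCTGTGGTGTAGGTTGCAGA

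PPBP, the precursor of the neutrophil-attracting chemokine NAP-2, lies on chromosome 8 from 70021468 to 70022490 in Sscrofa11.1 and was lower in DD blood. In DD pigs its log2 signal ranged from 7.32 through a median of 8.81 to 10.39, and in LW pigs from 8.44 through 9.46 to 10.66. The groups overlapped, with 4 of the 10 DD pigs below every LW pig and 2 of the 11 LW pigs above every DD pig. The fitted difference, DD minus LW with chip and litter in the model, was -0.94 (SE 0.32, 95% interval -1.61 to -0.28) or 1.92-fold, with an adjusted p of 0.0408 in limma. This fit used a litter correlation estimated below 0 (-0.11), and with no litter block the difference was -0.95 (SE 0.34) and the adjusted p 0.0619, so that the call was lost. It was the only 1 of the 7 genes past the threshold, beside 21.2% of all features, and 9.8% of features were called lower in DD. Without adjustment, 2 of the 7 had p below 0.05, PPBP and ITGB3, beside 36.8% of all features. Litter means of PPBP ran from 7.86 to 9.36 in the 5 DD litters and from 9.10 to 10.03 in the 6 LW litters. From whole blood RNA alone, fewer platelets and less RNA per platelet cannot be told apart. The study also took platelet counts and does not name them among the blood measures it retained as different between breeds. Those counts were not used here.

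The PPBP difference was not the same on each chip. On chip 1 the 3 DD pigs read 7.32, 7.67 and 9.33 and the 4 LW pigs 9.17, 9.46, 9.91 and 10.66, so that all but 1 DD pig lay below the LW pigs. On chip 2 the 4 DD pigs read 7.58, 7.75, 9.08 and 9.24 and the 4 LW pigs 8.44, 8.86, 10.17 and 10.40. On chip 3 the DD pigs read 8.54, 9.41 and 10.39, on both sides of the LW pigs at 9.29, 9.39 and 9.55. DD minus LW was thus -1.69, -1.05 and 0.04 on the 3 chips, and without chip 1 the fitted difference was -0.60 with an adjusted p of 0.249 in limma. Leaving out single pigs kept the call in 9 of 21 cases, with the difference between -1.11 and -0.79.

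The probes of PPBP gave differences close to each other. The probe at base 350 differed by -0.99 (SE 0.31, adjusted p = 0.030 in limma over single probes) and the second by -0.90 (SE 0.34, adjusted p = 0.059). Another probe, described in the file as platelet basic protein and starting at base 1435 of its target, differed by -0.90 (SE 0.34, adjusted p = 0.062). The oligo of base 350 was also printed a second time under another name, where it differed by -0.99. The 2 spots of this oligo followed each other across the 21 arrays with r = 0.996 and an SD of their difference of 0.09 on the log2 scale, against an SD of 0.84 between pigs of a breed and chip.

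**Figure D1:**
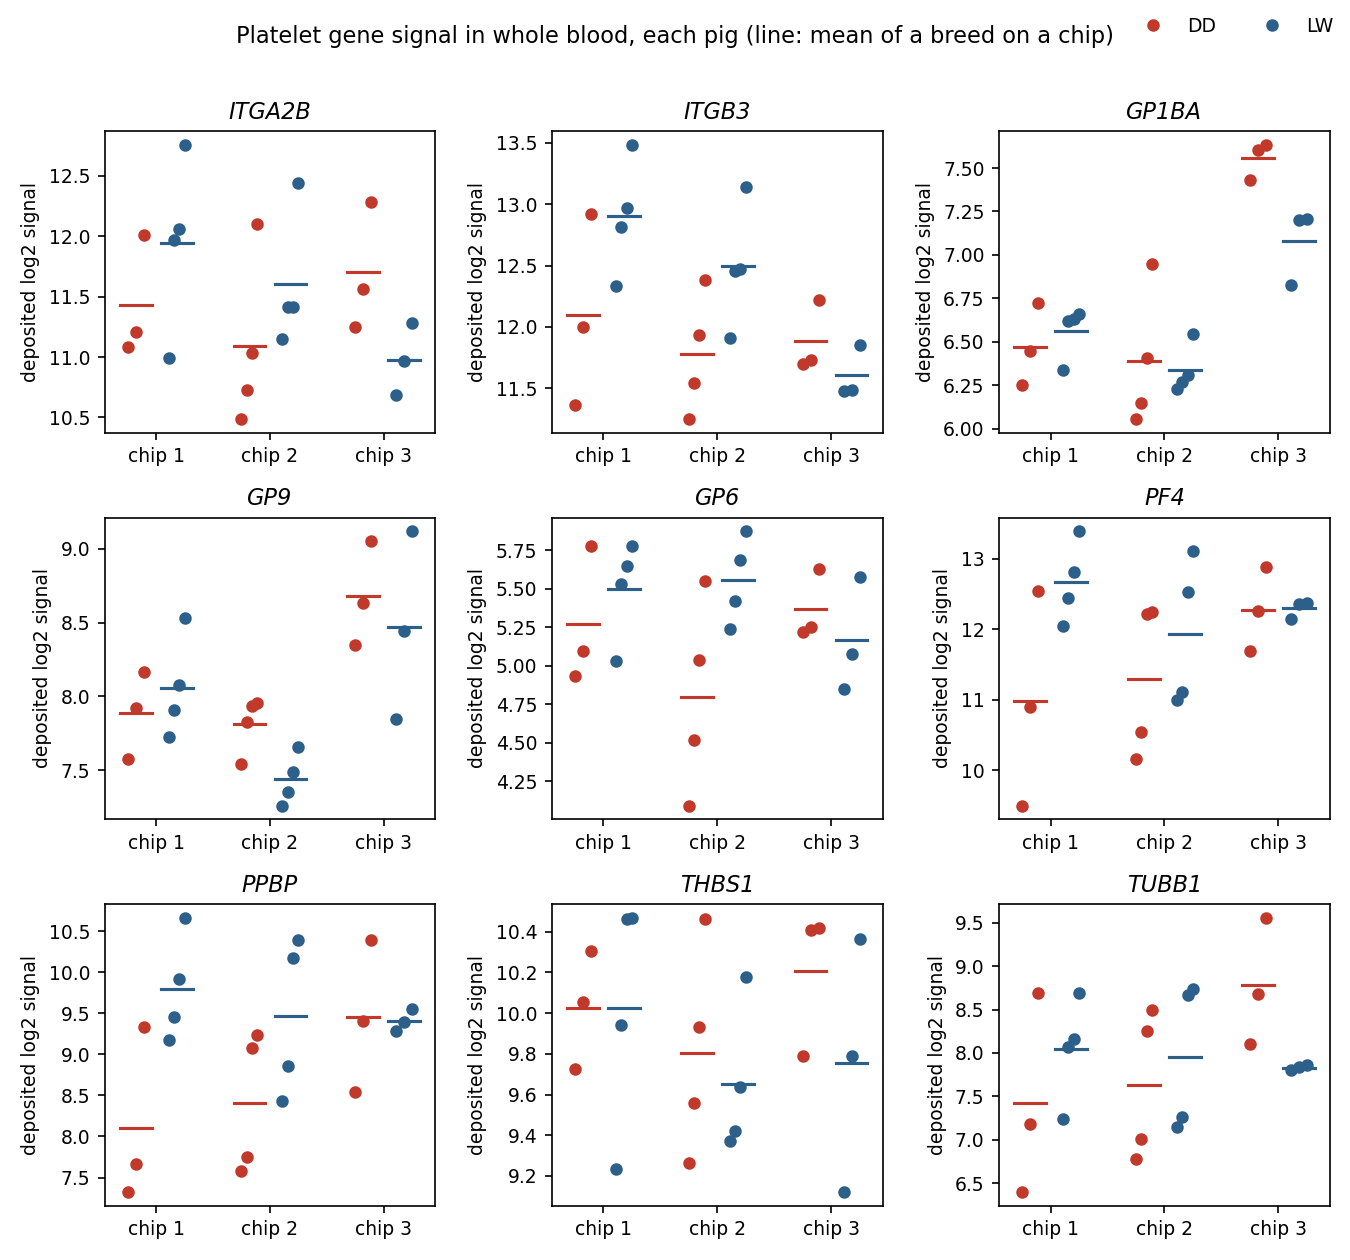
Deposited log2 signal of 9 platelet genes (vertical axis) in each of 21 pigs, by chip (horizontal axis), with DD in red, LW in blue and a line at the mean of each breed on a chip. PPBP and PF4 lie lower in DD on chips 1 and 2 and at the same level on chip 3, where ITGA2B and TUBB1 lie higher in DD.

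PF4, the heparin-binding chemokine that shares the alpha granule with PPBP, gave a difference close to that of PPBP that did not pass the threshold. DD pigs ranged from 9.50 through a median of 11.96 to 12.89 in log2 signal and LW pigs from 10.99 through 12.37 to 13.39. As with PPBP, 4 DD pigs were below every LW pig and 2 LW pigs above every DD pig. The fitted difference was -0.80 (SE 0.35, adjusted p = 0.105 in limma), with -1.69, -0.65 and -0.02 on chips 1, 2 and 3. A probe from an expressed sequence tag that shares a run of 46 bases with the PF4 probe differed by -0.88 (SE 0.36, adjusted p = 0.080).

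The fibrinogen receptor chains did not pass the threshold either. ITGA2B, on chromosome 12 from 18860739 to 18877381 in Sscrofa11.1, had a median log2 signal of 11.23 in DD (10.49 to 12.29) and 11.41 in LW (10.69 to 12.76). Its difference was -0.15 (SE 0.24, adjusted p = 0.671), with -0.51 and -0.52 on chips 1 and 2 and 0.72 on chip 3. ITGB3, on the same chromosome from 16694466 to 16752228, had a median of 11.83 in DD (11.25 to 12.92) and 12.46 in LW (11.48 to 13.48). Its difference was -0.46 (SE 0.20, adjusted p = 0.105), with -0.80, -0.72 and 0.28 on the chips. For both chains the sign on chip 3 was thus opposite to that on chips 1 and 2.

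The 3 ITGB3 probes gave unlike readings. The probe at base 4251 differed by -0.48 (SE 0.30) and followed ITGA2B across pigs with r = 0.94. A second, well above background on 8 of 10 DD and all 11 LW arrays, differed by -0.82 (SE 0.33, adjusted p = 0.073) and followed ITGA2B with r = 0.78. The probe at base 4376 had a mean log2 signal of 18.9 in DD and 19.0 in LW, differed by -0.07 (SE 0.07) and ran against ITGA2B with r = -0.47. Quantile normalization fixes the few values that probes at the top of the signal range can take, which limits what its difference and its r can show. It shares runs of 18 to 30 bases with 6 probes of other names, and whether it reads ITGB3 was not tested. Without it, a setting chosen after seeing the data, the ITGB3 difference was -0.65 (SE 0.30, adjusted p = 0.120).

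Of the von Willebrand factor receptor, GP1BA and GP9 are among the 10 genes, and neither passed the threshold. Another chain, GP1BB, is outside the 10 and is given below, at -0.58 (SE 0.32). GP1BA, on chromosome 12 from 51975810 to 51979428, had a median of 6.58 in DD (6.05 to 7.63) and 6.62 in LW (6.23 to 7.21), a difference of 0.13 (SE 0.11, adjusted p = 0.422, 95% interval -0.11 to 0.37). GP9, on chromosome 13 from 71558768 to 71565134, had a median of 7.94 in DD (7.54 to 9.05) and 7.85 in LW (7.26 to 9.12), a difference of 0.15 (SE 0.14, adjusted p = 0.472, 95% interval -0.15 to 0.44). Its 2 probes parted. That at base 462, which ends in the stop codon of an open frame and whose accession RefSeq gives to GP9, differed by -0.09 (SE 0.12) and followed ITGA2B with r = 0.75, and that at base 640 differed by 0.39 (SE 0.25) with r = 0.09.

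GP6, the collagen receptor, lies on chromosome 6 from 59214227 to 59237860 and was well above background on 6 of 10 DD and 10 of 11 LW arrays. Its median was 5.16 in DD (4.09 to 5.78) and 5.53 in LW (4.85 to 5.87). The difference was -0.31 (SE 0.18, adjusted p = 0.211), and a second GP6 probe, well above background on 3 DD and 7 LW arrays, gave -0.35 (SE 0.25, adjusted p = 0.325).

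THBS1, on chromosome 1 from 131728781 to 131746098, differed by 0.19 (SE 0.18, adjusted p = 0.462) as the mean of its 6 probes, with a median of 9.99 in DD (9.26 to 10.46) and 9.79 in LW (9.12 to 10.47). Behind this mean, the probes ran in both directions. The probe at base 419 was higher in DD by 0.72 (SE 0.23, adjusted p = 0.035), and on the chips by 0.13, 0.56 and 1.59. The probe at base 4239 differed by -0.32 (SE 0.22, adjusted p = 0.299), with -0.25, -0.51 and -0.15 on the chips. The other 4, at bases 4948 to 5257, lay between 0.15 and 0.25, and the pair at 5254 and 5257 overlaps by 57 bases. Outside the 6, a probe with the symbol in other letter case differed by 0.20 (SE 0.20). Another, matched by its description, differed by 0.18 (SE 0.13) and was well above background on 2 DD and 0 LW arrays.

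The THBS1 probes also differed in what they followed. Across pigs the probe at base 419 tracked ITGA2B with r = 0.76 and the mean of the monocyte markers with r = 0.07. For the probe at base 4239 the values were 0.52 and 0.52, and for that at base 4948 they were 0.51 and 0.53. The probes at 5062, 5254 and 5257 lay at 0.48 to 0.58 with ITGA2B and 0.26 to 0.39 with the monocyte markers. With array brightness the base 419 probe had r = -0.67 and the other 5 of the 6 had -0.28 to -0.15. Over single probes, 2 of the 16 passed the threshold, 1 of PPBP and 1 of THBS1, beside 21.7% of all 45228 probes tested.

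**Figure D2:**
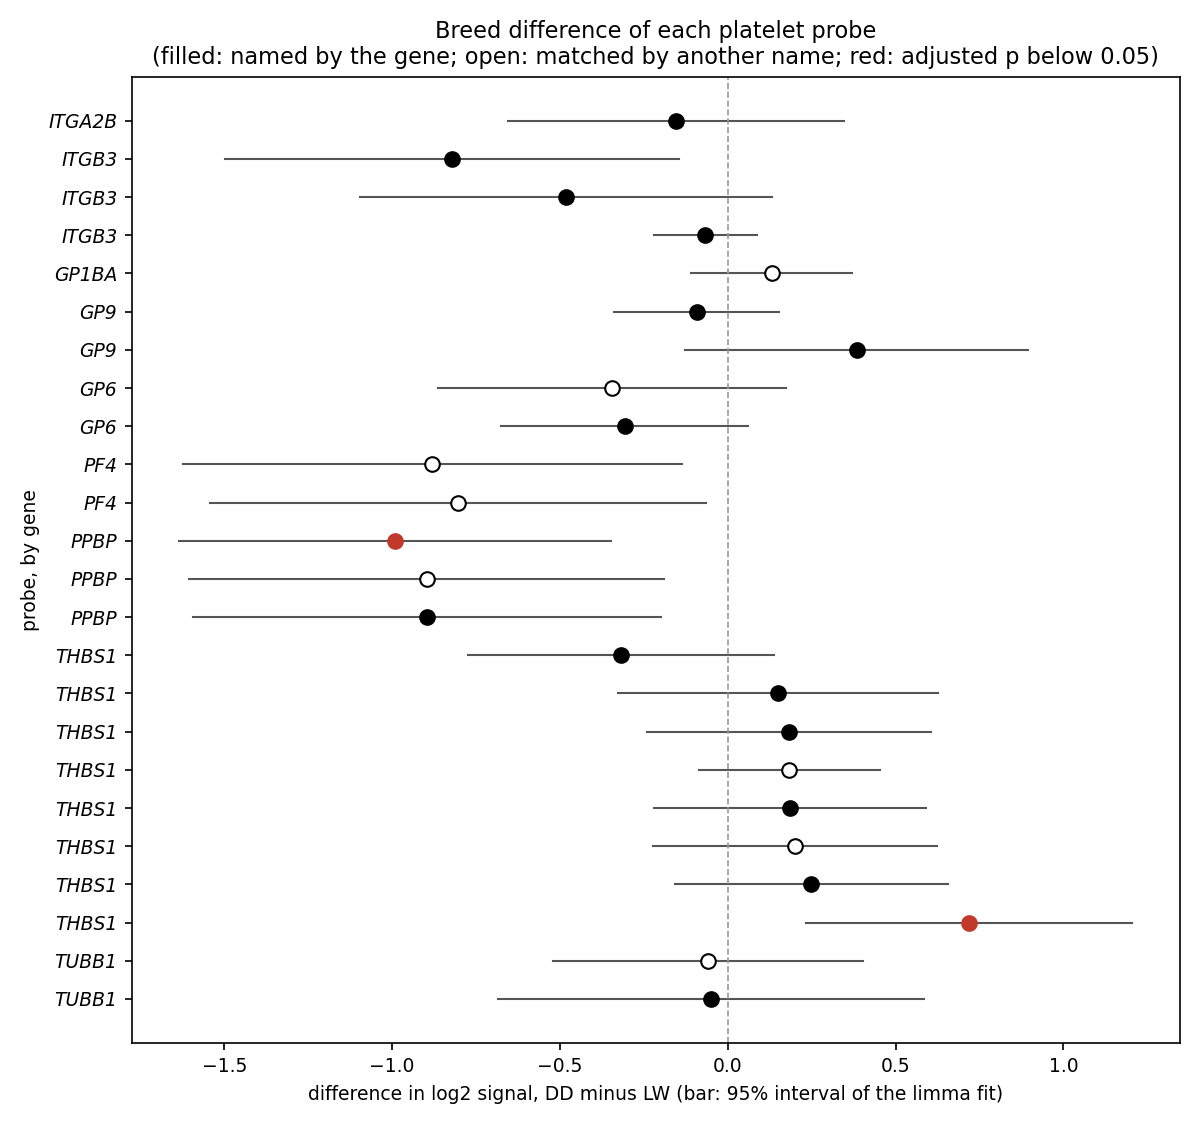
Difference in log2 signal, DD minus LW (horizontal axis), of each platelet probe other than repeat spots (vertical axis, by gene), with the 95% interval of the limma fit as a bar, filled points for probes named by the gene, open points for probes matched otherwise and red for an adjusted p below 0.05. All PPBP and PF4 probes lie between -0.99 and -0.80, while the THBS1 probes run from -0.32 to 0.72.

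TUBB1, on chromosome 17 from 59161420 to 59168385, had close means in the breeds and a wide spread within them. DD pigs ranged from 6.40 through a median of 8.18 to 9.56 and LW pigs from 7.15 through 7.86 to 8.74, so that 3 DD pigs were below every LW pig and 1 above. The difference was -0.05 (SE 0.30, adjusted p = 0.919, 95% interval -0.68 to 0.58), with -0.62, -0.32 and 0.95 on the 3 chips. With array brightness in the model it was -0.92 (SE 0.29, adjusted p = 0.130). The second TUBB1 probe, whose sequence is whole above, differed by -0.06 (SE 0.22) but did not follow the first, with r = -0.02 across the 21 pigs.

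Pig to pig, most of these genes rose and fell together. With chip and breed means removed, 35 of the 36 pairs among ITGA2B, ITGB3, GP1BA, GP9, GP6, PF4, PPBP, THBS1 and TUBB1 had a Pearson r above 0 across 21 arrays, with a median of 0.53. The median over pairs was 0.75 within the DD pigs and 0.47 within the LW pigs. Arrays of litter mates share a sow and all share a normalization, so these values are a description.

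PPBP, PF4 and TUBB1 formed the tightest set. PPBP and TUBB1 correlated with r = 0.97 (Spearman rho 0.96, and r = 0.97 without the pair of pigs farthest from the median), PPBP and PF4 with r = 0.94, and TUBB1 and PF4 with r = 0.94. ITGA2B and ITGB3 correlated with r = 0.88 (rho 0.88), and ITGA2B with PPBP at 0.79 (rho 0.76). THBS1 and GP1BA reached 0.67 with ITGA2B. GP6 and GP9 were at 0.35 and 0.38 with ITGA2B and -0.11 with each other, and GP6 was at 0.68 with GP1BA. The GP6 pairs differed by breed in these samples, from -0.02 to 0.83 within DD and from -0.50 (THBS1) to 0.42 (GP1BA) within LW, where GP1BA was the only pair above 0. That difference was not tested, and it rests on the 1 probe named GP6. The second GP6 probe followed ITGA2B with r = 0.73, at 0.77 within DD and 0.73 within LW. Its pairs with the other genes ran from 0.48 to 0.77 within DD and from -0.06 (GP9) to 0.86 (ITGB3) within LW. The GP6 probes followed each other with r = 0.24.

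**Figure D3:**
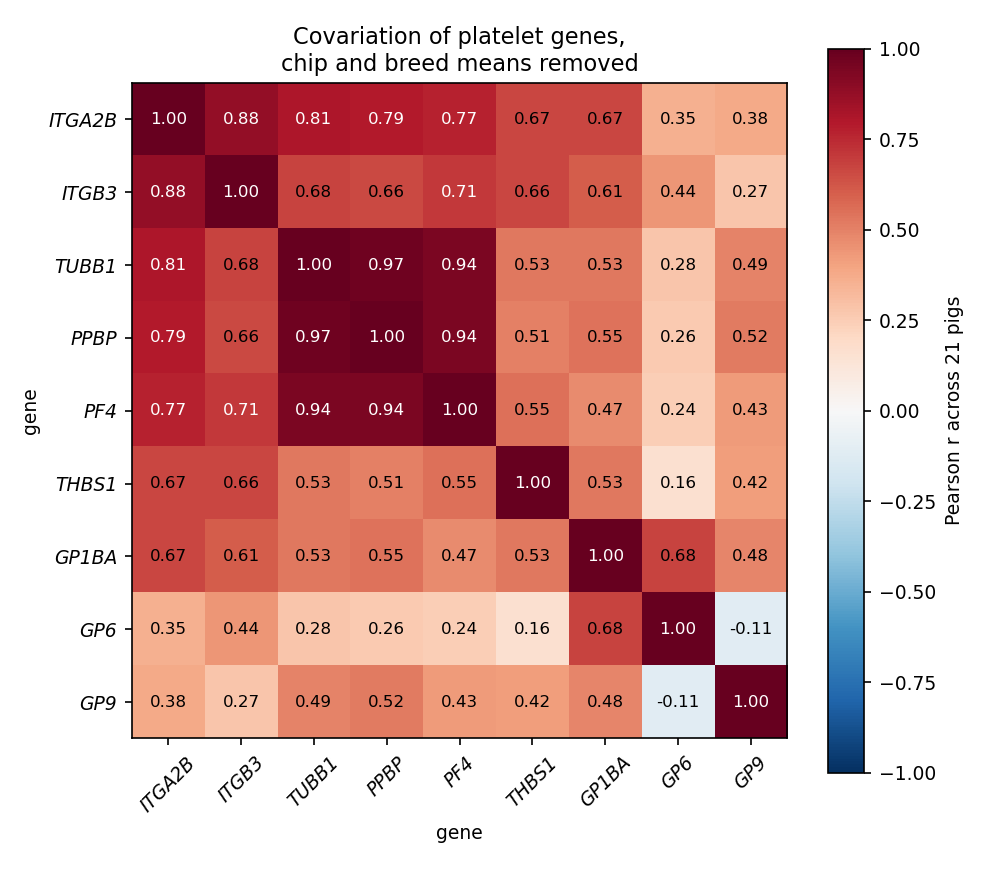
Pearson r across 21 pigs for each pair of 9 platelet genes (both axes), with chip and breed means removed, on a colour scale from -1 to 1. PPBP, PF4 and TUBB1 pair at 0.94 to 0.97, and GP6 with GP9 is the only pair below 0.

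The spread between pigs was wide for the granule chemokines. The SD within a breed and chip was 0.96 for PF4, 0.87 for PPBP, 0.83 for TUBB1 and 0.64 for ITGA2B, against a median of 0.37 over all features. PPBP thus varied more than 98.0% of features and PF4 more than 98.8%, while GP1BA, at 0.26, varied more than 17.7%. The highest pig over the 9 genes was DD_21, with all 9 above its breed and chip, and the lowest was DD_08, with all 9 below. Without both, a setting chosen after seeing the data, the PPBP difference was -0.96 (SE 0.31, adjusted p = 0.061 in limma).

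Array brightness moved with these genes. With breed and chip means removed, r with brightness was -0.80 for PPBP, -0.74 for TUBB1, -0.72 for ITGA2B and -0.65 for PF4, and -0.19 for GP6. The dimmer arrays therefore read higher for the platelet genes within a breed, while the breed with the dimmer arrays read lower for PPBP. With brightness added to the model, the PPBP difference was -1.94 (SE 0.27, adjusted p = 0.000362 in limma) and that of PF4 -1.70 (SE 0.38, adjusted p = 0.018). The same fit gave -0.92 (SE 0.29, adjusted p = 0.130) for TUBB1, -0.81 (SE 0.24, adjusted p = 0.0912) for ITGA2B and -0.85 (SE 0.24, adjusted p = 0.0791) for ITGB3. All 5 were thus further below 0 than without brightness, while GP9, GP1BA and THBS1 lay between -0.16 and -0.04 and GP6 was at -0.43. The part of brightness in these differences was not tested beyond this fit.

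**Figure D4:**
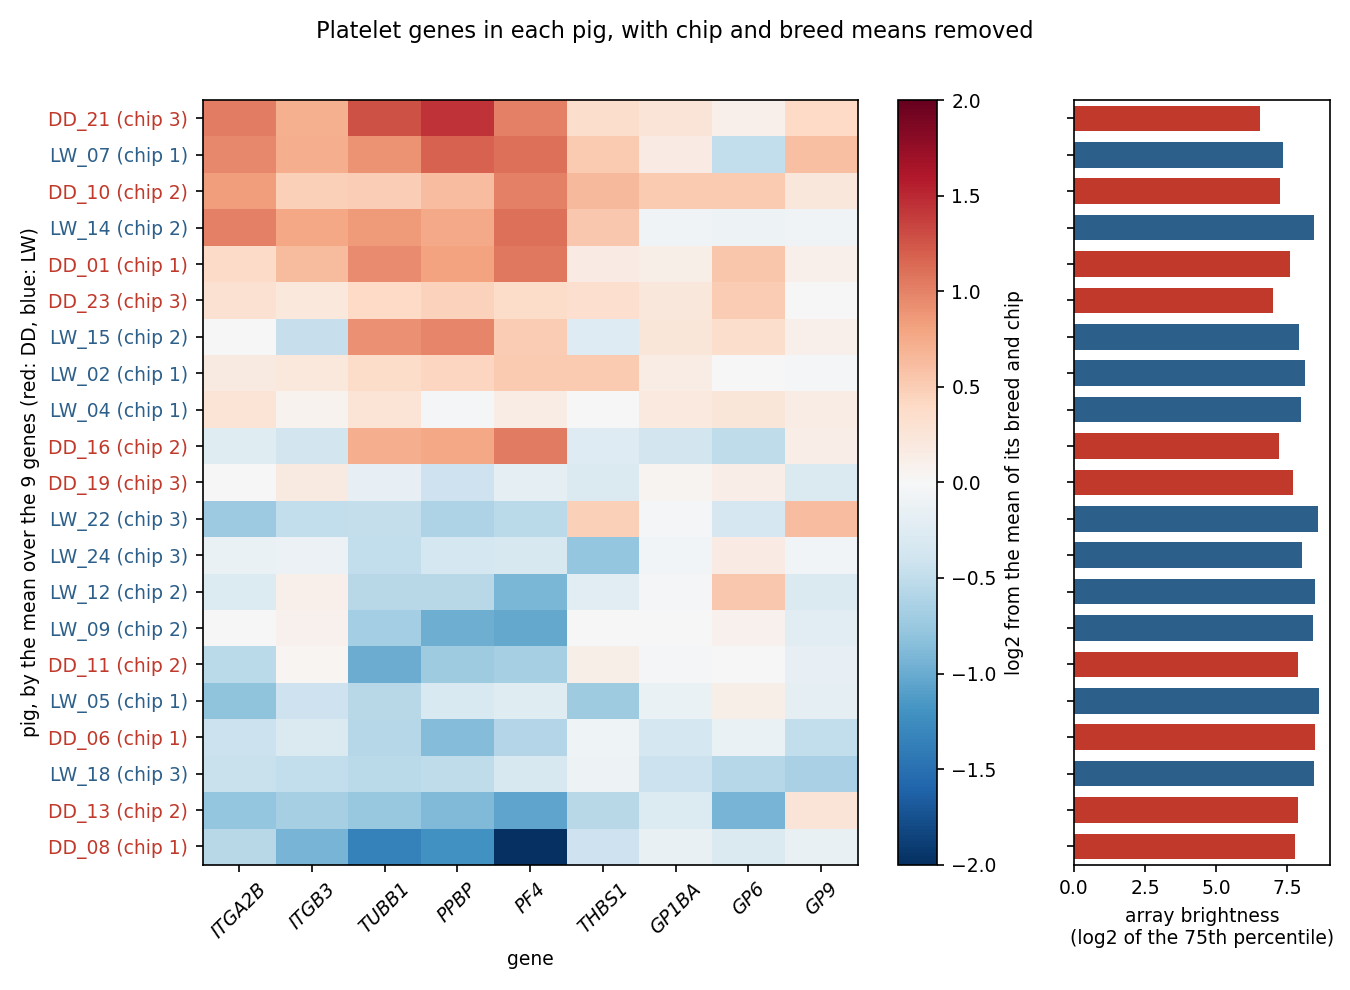
Log2 distance of each pig (rows, DD names in red and LW in blue) from the mean of its breed and chip for 9 platelet genes (columns), sorted by the mean over the genes, beside the brightness of its array (bars, log2 of the 75th percentile, starting at 0). DD_21, with the dimmest array at 6.56, is at the top, and DD_08 is at the bottom.

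PPBP minus TUBB1, read at base 3095, was lower in every DD pig than in every LW pig. This difference in log2 signal on the same array, with chip means removed and the LW mean set to 0, ran from -1.19 to -0.62 in DD and from -0.31 to 0.29 in LW. The breeds differed by -0.89 with an SD of 0.19 in DD (n = 10) and 0.20 in LW (n = 11). On chips 1, 2 and 3 the value was -1.07, -0.73 and -0.91, the same sign on each. This pair was singled out after its values were seen, as the only 1 of 36 pairs of platelet genes without overlap, and carries no test. Of all other features set against TUBB1 in the same way, 0.0782% did not overlap. The share was 1.97% for features set against PPBP and 0.145% for those set against ITGA2B, and 0.666% of features did not overlap on their own. No platelet gene was free of overlap on its own.

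The same held for each of the 3 PPBP probes against the base 3095 probe, at -0.94 to -0.85. Against the second TUBB1 probe, which PPBP did not follow (r of -0.03 to 0.05), the breeds overlapped and the differences were -0.94 to -0.84. Under 3 other normalizations of the arrays the pair stayed without overlap, at -0.90 to -0.82. These repeats used the same 21 arrays, and the mean of PPBP followed its base 1435 probe with r = 0.99. They are thus not separate evidence for the pair. TUBB1 minus PF4 was higher in DD by 0.76, so that PF4 too was lower relative to TUBB1, but the breeds overlapped, with DD pigs from 0.23 to 1.39 and LW pigs from -0.31 to 0.41. PPBP and PF4 moved as a pair, with a difference between breeds of -0.14 that was 0.00, -0.41 and 0.06 on the chips.

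**Figure D5:**
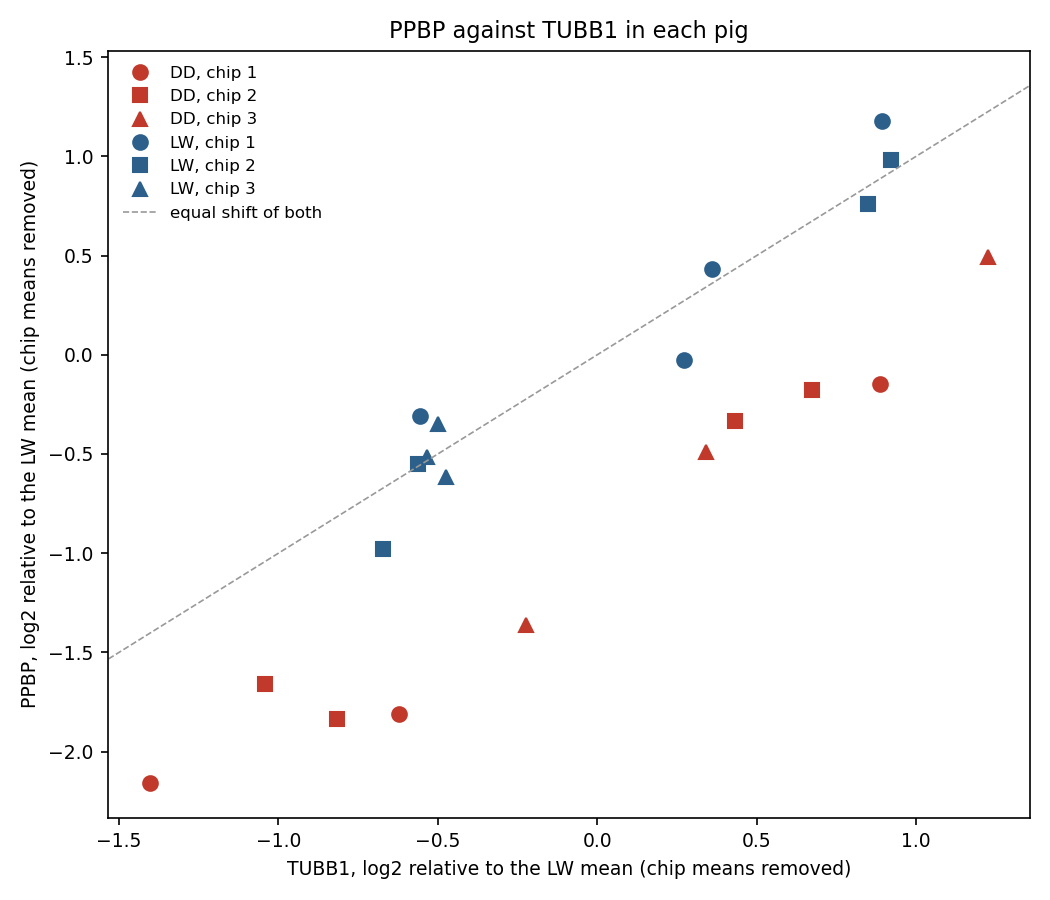
PPBP (vertical axis) against the base 3095 probe of TUBB1 (horizontal axis) in 21 pigs, both as log2 relative to the LW mean with chip means removed, DD in red, LW in blue, symbols by chip and a dashed line for an equal shift of both genes. The DD pigs run parallel to the LW pigs, 0.89 lower on the PPBP axis, with no pig of either breed in the other's band.

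Features outside these genes were set against the mean of the 7 genes with a probe of their name, each centred but not scaled. PF4 and GP1BA were not in that mean. The features that followed it most closely included other platelet genes and transcripts without a name. P-selectin, SELP, the granule membrane adhesion receptor, came first with r = 0.97 over 21 arrays, and GP1BB, the beta chain of the von Willebrand factor receptor, had r = 0.95. CALD1, the actin-binding caldesmon, had r = 0.95, FHL1, a LIM domain protein, 0.94, AVIL, an actin regulator of the villin family, 0.94, a transcript described as rho GTPase-activating protein 10-like 0.95 and another as synaptogyrin 1 0.94. The other 3 of the closest 10 had r of 0.96 to 0.97 and carry no gene name in the file. The median r of all other features was -0.11.

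Of these 10, CALD1 alone passed the threshold between breeds. SELP differed by 0.05 (SE 0.25, adjusted p = 0.896) and GP1BB by -0.58 (SE 0.32, adjusted p = 0.186). CALD1 was lower in DD by -1.04 (SE 0.29, adjusted p = 0.021). On chip 3 its difference was -0.01, as for PPBP, against -1.32 on chip 2.

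Of 16 measured genes in the list of other platelet surface receptors, 4 were higher and 3 lower in DD, with a median of -0.02, beside 11.4% of all features higher and 9.8% lower. With array brightness in the model 0 were higher and 2 lower, and without chip 3 these were 0 and 1. Over all 34511 features, these settings called 753 and 526, against 7313 in the main fit. With no litter block 2 were higher and 2 lower, and 5035 of all features were called. F2R, the thrombin receptor PAR1, fell by 1.76 (SE 0.23) and did so on every chip. The other 2 that fell had smaller differences. The fatty acid receptor CD36 rose by 0.78 (SE 0.17), the tetraspanin CD9 by 0.65 (SE 0.14), the thromboxane receptor TBXA2R by 0.51 (SE 0.17) and the adrenergic receptor ADRA2A by 0.48 (SE 0.15). F2R ran against ITGA2B across pigs, with r = -0.33, and TBXA2R with it, at 0.70.

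Granule cargo other than PPBP, PF4 and THBS1 had 1 gene higher and 2 lower of 20 measured, with a median of 0.03, shares close to or under the 11.4% and 9.8% of all features. With brightness in the model and without chip 3, none of the 20 was called, beside 753 and 526 of all 34511 features. The lower genes were CCL5, a chemokine of platelets and T cells (-1.10, SE 0.30), and APP (-0.88, SE 0.15), and the higher was the C1 inhibitor SERPING1 (0.70, SE 0.23). Of 19 genes of granule formation and release, 4 fell and none rose, with a median of -0.19, beside 9.8% of all features lower. With the background correction repeated from the scanner signals, or with the filter on probes well above background, 2 were called higher. Those that fell were NBEA (-0.78), the Rab proteins RAB27B (-0.69) and RAB27A (-0.35), and HPS5 (-0.54). RAB27B was well above background on 0 DD and 4 LW arrays, and NBEA on 3 DD and 10 LW arrays. The count of lower genes was 2 with brightness in the model and 1 without chip 3, beside 423 and 301 of all features.

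Of 22 cytoskeleton genes, 6 fell and 1 rose, with a median of -0.21, beside 9.8% and 11.4% of all features. The 6 became 3 with arrays scaled to the 75th percentile and 2 without chip 3. Over all features, 2210 and 301 were lower in these settings, against 3383 in the main fit. TAGLN fell by 2.11 (SE 0.50) but was well above background on 0 DD and 7 LW arrays. CALD1 (-1.04), the actin crosslinker ACTN1 (-0.56), and vinculin VCL (-0.52) also fell, the other 2 that fell had smaller differences, and the non-muscle myosin MYH9 rose by 0.54 (SE 0.15). Of 20 genes of integrin and collagen receptor signalling, the adaptor LCP2 (-1.01, SE 0.16) and VAV1 (-0.29, SE 0.10) fell and none rose, beside the 9.8% of all features lower. Without chip 3 none of the 20 was called, beside 526 of all 34511 features.

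A further list was named for platelet lipid, nucleotide and G protein enzymes, though not all of its genes encode enzymes. Of its 17 measured genes, SDPR (-1.08, SE 0.23), CMTM5 (-0.98, SE 0.33) and PRKG1 (-0.49, SE 0.14) fell, and MAX rose by 0.46 (SE 0.15). This stands beside 9.8% of all features lower and 11.4% higher. With array brightness in the model 0 were higher and 2 lower, and the same counts were found without chip 3. Over all 34511 features, these settings called 753 and 526. CMTM5 followed ITGA2B with r = 0.82 and SDPR with 0.70. PRKG1 was well above background on no array of either breed, and with the arrays scaled to their 75th percentile its difference was 0.12. No feature tested here carried the name of RGS18, a member of the same list, or matched it by accession or locus. The study, which annotated the probes anew, lists RGS18 among its most downregulated genes in DD.

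Of 9 transcription factors of megakaryocytes measured, 6 rose in DD and none fell, with a median of 0.43, beside 11.4% of all features higher in DD. Among them, GFI1B rose by 0.76 (SE 0.22), GATA2 by 0.71 (SE 0.20), LMO2 by 0.53 (SE 0.18) and LYL1, matched by its locus number, by 0.43 (SE 0.13). Several of these factors also act in the red cell lineage. With array brightness in the model 2 of the 9 were called, and without chip 3 there was 1. Over all 34511 features, these settings called 753 and 526.

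Some markers of other blood cells also differed between the breeds, beside 11.4% of all features higher and 9.8% lower in DD. Of 16 erythroid genes measured, 5 rose in DD and none fell, among them EPB42 (1.06), CA1 (1.02) and CA2 (0.77), with the log2 of their summed signal from 18.2 to 19.1 in DD and 17.9 to 19.0 in LW. None of the 16 was called with brightness in the model or without chip 3, and 1 was without DD_08 and DD_21. Over all 34511 features, these settings called 753, 526 and 2547, against 7313 in the main fit. Of 15 T cell genes, 5 fell and none rose (CD8A, CD3G, CD247, CD3D and BCL11B, by 0.51 to 0.77), with a sum of 12.4 to 13.6 in DD and 13.1 to 14.0 in LW. None of the 15 was called with brightness in the model or without chip 3, and 1 was without chip 2 and also with no chip term. Over all features, 5067 were called without chip 2 and 1922 with no chip term. Of 13 monocyte genes, CLEC7A (-1.01), CST3 (-0.94) and CD163 (-0.72) fell and none rose, with a list median of 0.0045 and a sum of 13.4 to 14.6 in DD and 14.0 to 15.0 in LW. With brightness in the model 1 of the 13 was called, and without chip 3 also 1. Of 11 granulocyte genes CHI3L1 (-0.88) fell and ARG1 (0.67) rose, with a sum of 13.8 to 14.9 in DD and 14.0 to 14.9 in LW. None of the 11 was called with brightness in the model, without chip 3, with no litter block or with no filter on low values. Over all features, 5035 of 34511 were called with no litter block and 4588 of 47030 with no filter. None of 8 B cell genes passed the limma threshold, or p below 0.05 without adjustment, with FCRLA at 0.38 and MS4A1 at 0.30 and a sum of 11.4 to 12.7 in DD and 11.0 to 13.0 in LW. Each measured marker of these 5 lists was well above background on at least 1 array. BCL11B was so on 3 DD and 8 LW arrays, and CLEC7A on 5 DD and 11 LW arrays. The part of these cells in the platelet values was not tested.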

How the data were processed

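Whole blood RNA was hybridised to one-colour Agilent arrays, 1 array per pig. The deposited intensity files are scanner output of Agilent Feature Extraction 10.7.3.1, per the file headers. The authors removed outlier arrays, corrected background by normexp, took log2 and normalized by quantiles, and these deposited log2 values were used. Chip, litter and age come from the study's methods. The number of arrays limits the precision.

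Controls and the 25% of probes with the lowest mean were removed, all platelet probes stayed, and kept probes of 1 gene name were averaged into 34511 features. DD was tested against LW in limma 3.58.1 (R 4.3.3), with chip as a fixed effect and litter as a random block (estimated correlation -0.11), and Benjamini-Hochberg adjustment over all features at a threshold of 0.05. The code was tested on simulated data. Correlations used values with chip and breed means removed and carry no p. The members and gene lists were chosen with earlier results of these data known. Named were the platelet genes, up to 5 called genes of each list with the largest differences (the 2 largest where none was called), F2R, RGS18, and the 10 features most correlated with the mean of the platelet genes. That mean covered the 7 genes with a probe of their name. Gene names are those of the array files, with locus numbers and positions from RefSeq for Sscrofa11.1. Some genes that this rule names are not reported here. A search of promoters for motifs was not run.

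Alternatives were other array processing, filters, probe choice, litter and chip terms, left-out chips and pigs, array brightness as a covariate and another variance model.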

Additional observations from a re-analysis of the deposited data

How the results depend on the processing

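PPBP kept its direction in all 37 alternatives, from -1.94 to -0.60, and stayed past the threshold in 16, with limma adjusted p from 0.000362 to 0.249. Of the 7 platelet genes, 1 was called, and 0 were called with arrays scaled to the 75th percentile, with no filter on low values, with no litter block, with no chip term, without chip 1, without chip 2, without chip 3, and, chosen after seeing the data, without DD_08 and DD_21. Litter means called 2, PPBP and ITGB3 (-0.48, adjusted p = 0.0475). Leaving out single pigs called 0 to 1, and the PPBP call was lost without DD 8, 11, 13, 19 or 23 and without LW 2, 5, 7, 14, 15, 18 or 22, with adjusted p from 0.0320 to 0.0903 over all 21. Over all features, 7313 calls became 5035 with no litter block, 4588 with no filter and 1922 with no chip term. They became 526 without chip 3, 753 with brightness as a covariate and 2547 without DD_08 and DD_21. With single pigs left out they ran from 2212 (without LW 18) to 11486 (without DD 6). With no filter 1 platelet probe was called in place of 2. PF4 passed without chip 2 (-1.14, adjusted p = 0.0394) and with the brightness covariate. THBS1 read by the probe with the highest mean was 0.72 (adjusted p = 0.0326).

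Directions turned as follows, and the cause was not tested. PRKG1 was 0.12 with the 75th percentile scaling. GP9 was -0.092 with the probe of highest mean. Without chip 1 TUBB1 was 0.22, and without chip 2 TUBB1 was 0.0023, ITGA2B 3.56e-05 and GP6 0.012. GP1BA was -0.032 without chip 3. With the brightness covariate GP9 was -0.16, THBS1 -0.041, GP1BA -0.10 and TBXA2R -0.028. TUBB1 turned in 7 of 21 cases with a pig left out, from -0.20 to 0.12. The median correlation among the 7 genes was 0.51, and 0.40 to 0.52 under its alternatives. No paired analysis of the breeds was made, because DD and LW were separate animals from separate litters. The promoter motif count was not run.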
